A study of Rattus norvegicus with 9 samples.

Results

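The nuclear tRNA genes for cysteine, selenocysteine, serine and threonine were followed in small RNA libraries of rat striatum after oral manganese. They were taken by name, as every entry of the count tables that names a nuclear tRNA gene of these amino acids. The set itself was chosen with earlier results of these data known. The choice gave 90 genes of 408 nuclear tRNA genes and of 1759 entries in all. The genes fall into 10 anticodons, written in DNA letters: Cys-GCA (40 genes), SeC-TCA (1), Ser-ACT (1), Ser-AGA (11), Ser-CGA (3), Ser-GCT (12), Ser-TGA (4), Thr-AGT (9), Thr-CGT (4) and Thr-TGT (5). SeC stands for selenocysteine.

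The striatum receives most of the input to the basal ganglia and is among the brain regions that manganese injures. Rats of both sexes, 8 weeks old, were gavaged daily on 6 days of each week over 8 weeks. Control rats were given corn oil (1 ml/kg). The MMT group received methylcyclopentadienyl manganese tricarbonyl, a fuel additive, at 4 mg/kg in corn oil, which carried about 1 mg of manganese per kg. The MnCl2 group, the positive control, received manganese chloride tetrahydrate at 200 mg/kg in 10 ml/kg of saline, so it differed from the corn oil control in vehicle as well as in manganese. Each group had 3 libraries, from a series of 18 rats with 3 rats per group and sex. The labels give neither the sex for each library nor whether rats were pooled. The p-values therefore reflect the spread between 3 libraries per group, and that spread may be technical.

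A tRNA carries an amino acid to the ribosome and reads a codon through its anticodon, the triplet in the middle of the molecule. Serine codons fall into separate UCN and AGY boxes. Ser-AGA, Ser-CGA and Ser-TGA read the former, and Ser-GCT and Ser-ACT carry anticodons to AGY. The threonine anticodons differ only in the base that pairs with the last base of the codon, and the cysteine genes share a single anticodon. Serine tRNAs have a long variable arm, which seryl-tRNA synthetase recognises. Selenocysteine tRNA is first charged with serine by the same enzyme, and the serine is then converted to selenocysteine. It reads UGA in the mRNAs of selenoproteins, among them the glutathione peroxidases, which detoxify peroxides. In cells, tRNAs are also cut into shorter fragments, often at the anticodon loop, and such cutting is known to rise under several kinds of stress. The libraries were made from RNA of 15 to 45 nucleotides, so the counts come from fragments and not from whole tRNAs. A level here does not say how much charged tRNA a cell holds.

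The most abundant gene copy of each anticodon is shown first, since all levels below refer to these forms. Sequences are 5′ to 3′ as the tables list them, with the CCA end that is added after transcription, and the anticodon is in capitals. Coordinates are those in the entry names. The submitters' processing notes name rn6, but a Cys-GCA entry of these tables ends at chr4:214657188, beyond the last gene end on chromosome 4 in the RefSeq table of GRCr8 (184404305), so the build of the coordinates is not settled here.
Cys-GCA, chr10:85531000-85531071, plus strand: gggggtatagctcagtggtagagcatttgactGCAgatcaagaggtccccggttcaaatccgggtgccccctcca
SeC-TCA, chr1:81479463-81479548, plus strand: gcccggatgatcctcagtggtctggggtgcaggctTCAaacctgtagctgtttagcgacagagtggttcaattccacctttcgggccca
Ser-ACT, chr17:45849674-45849747, minus strand: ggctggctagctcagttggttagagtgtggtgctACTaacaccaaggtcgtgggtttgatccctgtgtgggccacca
Ser-AGA, chr17:58823678-58823759, minus strand: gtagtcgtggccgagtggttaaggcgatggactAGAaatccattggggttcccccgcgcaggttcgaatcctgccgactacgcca
Ser-CGA, chr7:2851208-2851289, minus strand: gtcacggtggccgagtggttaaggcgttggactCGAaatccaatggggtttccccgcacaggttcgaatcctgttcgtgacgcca
Ser-GCT, chr1:227346472-227346553, minus strand: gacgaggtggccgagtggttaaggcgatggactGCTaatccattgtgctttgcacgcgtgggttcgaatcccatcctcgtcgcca
Ser-TGA, chr17:58801012-58801093, minus strand: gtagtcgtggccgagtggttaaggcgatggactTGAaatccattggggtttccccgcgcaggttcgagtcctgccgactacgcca
Thr-AGT, chr1:92616999-92617072, minus strand: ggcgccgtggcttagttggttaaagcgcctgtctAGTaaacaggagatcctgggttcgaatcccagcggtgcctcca
Thr-CGT, chr10:64590994-64591065, minus strand: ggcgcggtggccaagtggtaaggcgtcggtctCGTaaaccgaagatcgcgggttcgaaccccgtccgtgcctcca
Thr-TGT, chr15:31823250-31823322, minus strand: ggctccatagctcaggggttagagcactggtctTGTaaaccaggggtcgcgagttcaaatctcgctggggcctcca
The serine forms other than Ser-ACT have 82 bases before the CCA, and the selenocysteine form has 86. The Ser-ACT entry has 74 bases, the same number as the leading Thr-AGT form. It and the Ser-AGA copies on chromosome 5 (trna6200, 72 bases) and chromosome 19 (trna372, 75 bases) are too short to hold the long variable arm. Their place among the serine tRNAs rests on the anticodon in the entry name.

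Library totals ran from 583045 counts in control 3 to 2012769 in control 1. The 90 genes held between 33243 and 100986 counts per library. All 90 passed the filter on low counts, which left 1113 entries of all classes for testing. Brain markers were high in every library, with miR-9a-5p at 21857 to 32149 CPM (counts scaled by TMM to a common library size) and miR-124-3p at 1945 to 2655 CPM. The choroid plexus marker miR-204-5p varied from 201 to 1920.1 CPM between libraries, and its part in the values below was not tested. Markers of blood (miR-451-5p, miR-144-3p), muscle (miR-1-3p, miR-133a-3p) and liver (miR-122-5p) were at most 78.7 CPM. The oligodendrocyte markers miR-219a-5p and miR-338-3p were at 465 to 1094 and 2526 to 4233 CPM.

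The part of the nuclear tRNA counts that the 90 genes took differed between the groups by less than the spread between libraries. Their share was 15.4%, 14.3% and 14.8% in the control libraries, 15.2%, 15.1% and 15.0% with MMT, and 13.5%, 14.2% and 15.4% with MnCl2. The group means were 14.8% ± 0.557 (SD, n = 3) for control, 15.1% ± 0.106 for MMT and 14.4% ± 0.945 for MnCl2. The MMT libraries lay within the range of the control libraries, and the MnCl2 libraries reached lower. The difference was 0.259 percentage points for MMT against control (exact two-sided permutation test, p = 0.5), -0.485 for MnCl2 against control (p = 0.4) and 0.744 for MMT against MnCl2 (p = 0.4), and all 3 had an adjusted p of 0.5. With 3 libraries against 3, no p below 0.1 is possible.

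The anticodons differed far more from each other than any of them did between groups. Per 100 bases of tRNA, in the control libraries, Cys-GCA and Ser-AGA were the highest, at 18422 ± 480 and 17385 ± 1475 CPM (SD, n = 3), and did not differ beyond their spread. Ser-GCT (7877 ± 699), Ser-TGA (7138 ± 684) and Thr-AGT (6286 ± 444) followed, each overlapping the next. SeC-TCA was at 4046 ± 857 from a single gene, overlapping Thr-TGT at 3323 ± 240.2. Thr-CGT (2236 ± 149), Ser-CGA (1058 ± 43.3) and Ser-ACT (315 ± 173) closed the order. Ser-AGA and Ser-TGA share a set of 8 copies with near-equal counts, described below, whose levels cannot be told apart by anticodon. The places of Ser-AGA and Ser-TGA in the order carry that limit. Levels below are CPM per anticodon or per gene and are compared between groups only, not between genes.

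**Figure D1:**
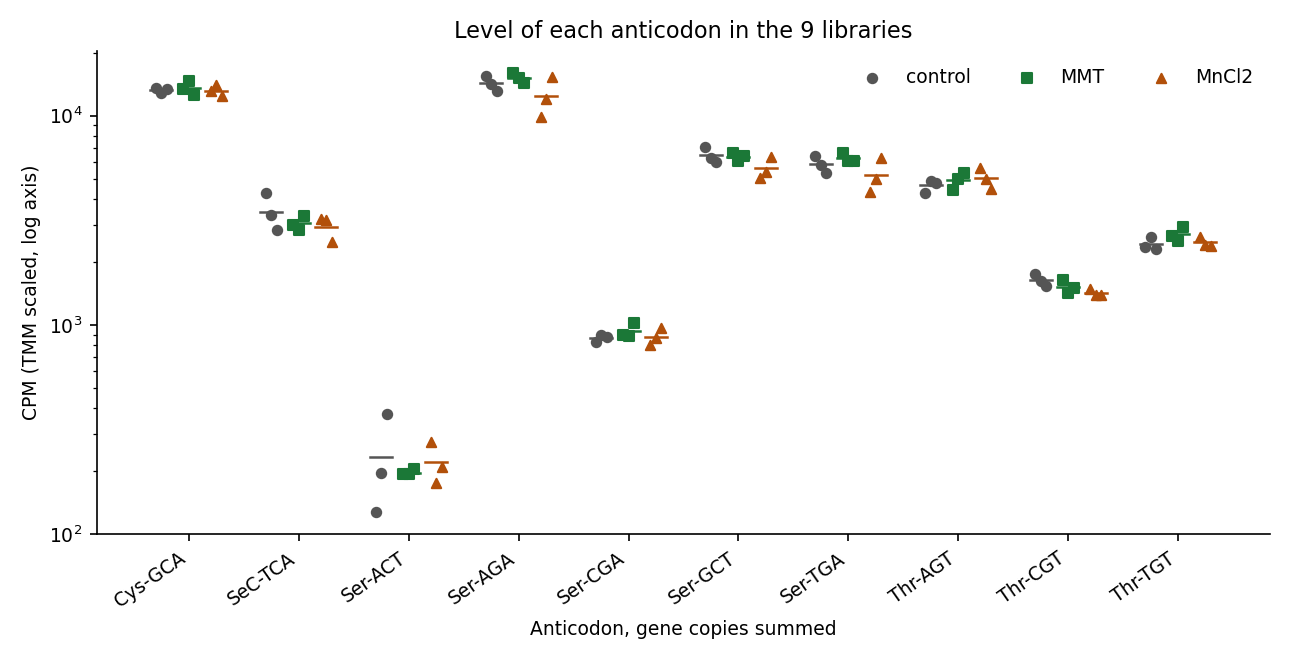
Level of each anticodon with its gene copies summed, in CPM on a log axis, for 3 control, 3 MMT and 3 MnCl2 libraries. Points are libraries and short lines are group means. Ser-AGA ran from 9809.6 to 16024 over the 9 libraries, and the groups overlapped for every anticodon except Thr-CGT, where all 3 MnCl2 libraries lay below the control libraries.

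No anticodon was called in any comparison at an adjusted p under 0.05 (edgeR quasi-likelihood test on the summed counts, Benjamini-Hochberg over 755 entries, smallest adjusted p of these 10 sums 0.9207). The share called over all 755 entries was 0% as well. At an unadjusted p under 0.05, 0 of the 10 sums passed in any direction. Over all 755 entries that share was 0.132% higher and 1.32% lower for MMT against control, 1.85% higher and 1.46% lower for MnCl2 against control, and 0.795% in each direction for MMT against MnCl2. Read against those shares, 0 of 10 is no result in itself. At the same unadjusted p, without MnCl2 3, 2 sums passed lower for MnCl2 against control (2.04% of all entries in that fit) and 2 passed higher for MMT against MnCl2 (1.28%). For MnCl2 against control 1 sum passed lower without control 3 (3.89%) and 1 with DESeq2 (3.58%). DESeq2 also called 0 of the 10 sums in each comparison. In counts simulated from these libraries, the same test at the level of single entries, for MMT against control, called 24.5% of the entries given a 1.5-fold change. It called 56.5% of those changed 2-fold and 82% of those changed 4-fold, so most simulated single entries changed 1.5-fold were missed. These were entries of all classes, and the anticodon sums were not simulated, so the rates do not apply to the sums.

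Cysteine is served by Cys-GCA alone, and its summed level was nearly level across the groups. The control libraries were at 13498, 12868 and 13427 CPM, the MMT libraries at 13443, 14621 and 12518, and the MnCl2 libraries at 13083, 13946.5 and 12366. The 3 ranges overlapped, with the control libraries closest together. The means were 13264 ± 345, 13527 ± 1054 and 13132 ± 791 CPM (SD, n = 3). The log2 fold change was 0.03 (SE 0.13, edgeR adjusted p = 0.9996) for MMT and -0.01 (SE 0.13, adjusted p = 0.9997) for MnCl2 against control.

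The selenocysteine tRNA had its lowest library in the MnCl2 group. The single SeC-TCA gene lies at chr1:81479463-81479548. It was at 4278, 3335 and 2827 CPM in control, 3013, 2854 and 3304 with MMT, and 3190.2, 3159 and 2498 with MnCl2. Control 1 stood above all other libraries, control 2 just above the highest treated library, and control 3 among the treated ones. The means were 3479.9 ± 737, 3057 ± 228 and 2949 ± 391 CPM. The log2 fold change was -0.19 (SE 0.18, edgeR adjusted p = 0.9996) for MMT and -0.24 (SE 0.18, adjusted p = 0.9207) for MnCl2 against control, neither past the threshold. Both comparisons share the control libraries, and both values turned on control 1: without it they were -0.004 and -0.06. Over each library left out in turn they ran from -0.31 to -0.004 and from -0.44 to -0.06.

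Serine fragments varied most with MnCl2, and the variation lay between the MnCl2 libraries. Ser-AGA was at 15506, 14170.3 and 13091 CPM in control, 16024, 15076 and 14286 with MMT, and 9809.6, 11976 and 15361 with MnCl2. Ser-TGA was at 6427, 5827 and 5306 CPM in control, 6600.1, 6039 and 6085 with MMT, and 4301, 4957 and 6302 with MnCl2. Ser-GCT was at 7104, 6269 and 6006 CPM in control, 6646, 6062 and 6381 with MMT, and 5056, 5394 and 6367 with MnCl2. For all 3 anticodons, MnCl2 1 and MnCl2 2 lay below every control and MMT library, and MnCl2 3 lay within their range. Some markers of other cells also differed between these libraries: miR-144-3p (erythrocytes) was at 48.3, 19.5 and 24.1 CPM in the MnCl2 libraries against at most 13.7 in control. In the same libraries miR-219a-5p (oligodendrocytes) was at 1094, 532 and 808 CPM against 465 to 577 in control, and miR-1-3p (muscle) at 15.2, 61.6 and 11.5 against 5.56 to 9.77. For miR-219a-5p, MnCl2 2 lay within the control range. The other listed marker of each of these cell types overlapped control as well. Here miR-451-5p was at 78.7, 29.3 and 39.9 CPM with MnCl2 against 33.2 to 62.3 in control. For miR-338-3p the values were 4132, 3001 and 4233 against 2526 to 4121, and for miR-133a-3p 12.4, 38.1 and 11.5 against 4.89 to 12.8. Among the neuron markers, miR-124-3p was at 2558, 2367 and 2655 CPM with MnCl2 against 1989 to 2211 in control. The neuron markers miR-128-3p and miR-9a-5p overlapped control. The part of these markers in the serine values was not tested.

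The MnCl2 log2 fold changes against control were -0.20 (SE 0.17) for Ser-AGA, -0.17 (SE 0.16) for Ser-TGA and -0.21 (SE 0.14) for Ser-GCT, each with an edgeR adjusted p of 0.9207. Without MnCl2 1 they were -0.07, -0.06 and -0.14, and without MnCl2 3 they were -0.39, -0.34 and -0.31, so the values moved by over 1.5 times with a single library. MMT means were 15129 ± 870.2 CPM for Ser-AGA, 6241 ± 311 for Ser-TGA and 6363 ± 292 for Ser-GCT, against 14256 ± 1209, 5853 ± 561 and 6459 ± 573 in control. The MMT log2 fold changes were 0.09 (SE 0.17), 0.09 (SE 0.16) and -0.02 (SE 0.14), each with an edgeR adjusted p of 0.9996.

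The same libraries stood out by share, a measure that needs no scaling between libraries. Serine genes took 43.7%, 47.4% and 55.8% of the counts of the 90 genes in the MnCl2 libraries, against 50.8% to 53.4% in control and 51.7% to 54.6% with MMT. The difference between MnCl2 and control was -3.04 percentage points (exact two-sided permutation test, p = 0.5, adjusted p = 0.96 over 12 shares). Within serine the most abundant anticodons kept narrow proportions and the scarce ones did not. Ser-TGA held between 20.7% and 21.7% of serine counts in all 9 libraries, and Ser-AGA between 48.4% and 53.4%. Ser-CGA held between 2.76% and 3.98%, and Ser-ACT between 0.424% and 1.46%. Ser-GCT held 23.7%, 22.9% and 23.4% in control and 21.9%, 21.5% and 22.8% with MMT. Those 2 groups did not overlap, with a difference of -1.28 percentage points at the smallest p that 3 against 3 allows (exact permutation test, p = 0.1, adjusted p = 0.6 over 12 shares).

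The near-constant ratio of Ser-TGA to Ser-AGA has a counterpart in the sequences. A set of 6 Ser-AGA and 2 Ser-TGA copies have the same first 33 bases and part at the anticodon. Each of the 8 copies had between 21359 and 21929 counts over the 9 libraries. Within a library the 8 copies differed from each other by no more than counting noise (chi-square per degree of freedom 0.952). These 8 copies held 173021 counts, where all Ser-AGA copies held 135969 and all Ser-TGA copies 56346. For this set the levels of the 2 anticodons cannot be told apart in the tables. How reads that fit several entries were counted is not given in the sources used here.

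The scarce serine anticodons gave no difference either. Ser-CGA was between 805 and 1026 CPM in all 9 libraries, with means of 867 ± 35.5 in control, 933 ± 81.0 with MMT and 880.1 ± 85.0 with MnCl2. Ser-ACT was at 127, 196 and 375 CPM in control, 193, 193 and 204 with MMT, and 276, 176 and 209.8 with MnCl2. Its control libraries alone spanned the range of all 9. Its log2 fold change was -0.23 (SE 0.34) for MMT and -0.07 (SE 0.34) for MnCl2 against control, with edgeR adjusted p-values of 0.9996 and 0.9997. The 9 nuclear leucine tRNA genes, whose tRNAs also have a long variable arm, had 0 calls as well, with a median log2 fold change of 0.10 for MMT and -0.15 for MnCl2 against control. The 31 serine genes had medians of 0.04 and -0.15 in the same comparisons, beside 0.01 and 0.06 over all 1113 entries. Over all 408 nuclear tRNA genes the medians were -0.01 and -0.08. With MnCl2 the medians of the other amino acids ran from -0.37 (glutamine) to 0.29 (aspartate), so -0.15 was not particular to serine and leucine.

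Among the threonine anticodons Thr-CGT gave the only sum whose groups did not overlap. Thr-CGT was at 1745, 1625 and 1527 CPM in control, 1645, 1425 and 1508 with MMT, and 1483, 1392 and 1394 with MnCl2. Every MnCl2 library lay below every control library, while the MMT libraries overlapped both. The means were 1633 ± 109, 1526 ± 111 and 1423 ± 52.0 CPM, and the log2 fold change for MnCl2 against control was -0.20 (SE 0.14, edgeR adjusted p = 0.9207). Groups were apart in this way, lower, for 1 of the 10 sums and for 3.31% of all 755 entries in that comparison. No sum was apart in the other direction or comparison, where the shares over all entries were 6.62% (higher with MnCl2 than control), 2.38% and 1.99% (higher and lower with MMT than control), and 2.91% and 5.83% (higher and lower with MMT than MnCl2).

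As a part of the threonine counts Thr-CGT held 20.8%, 17.8% and 17.7% in control and 15.2%, 15.8% and 16.9% with MnCl2, a difference of -2.82 percentage points (exact permutation test, p = 0.1, adjusted p = 0.8 over 12 shares). Thr-TGT was at 2349.9, 2626 and 2301 CPM in control, 2675, 2508 and 2944 with MMT, and 2635, 2415 and 2390.5 with MnCl2. The MMT and control libraries overlapped, and the log2 fold change of 0.16 (SE 0.14, edgeR adjusted p = 0.9996) was the highest of the 10 sums for MMT. Thr-AGT, the most abundant of the 3, ran from 4278 to 5647 CPM, with means of 4652 ± 329, 4919.6 ± 456 and 5039 ± 584 for control, MMT and MnCl2.

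**Figure D2:**
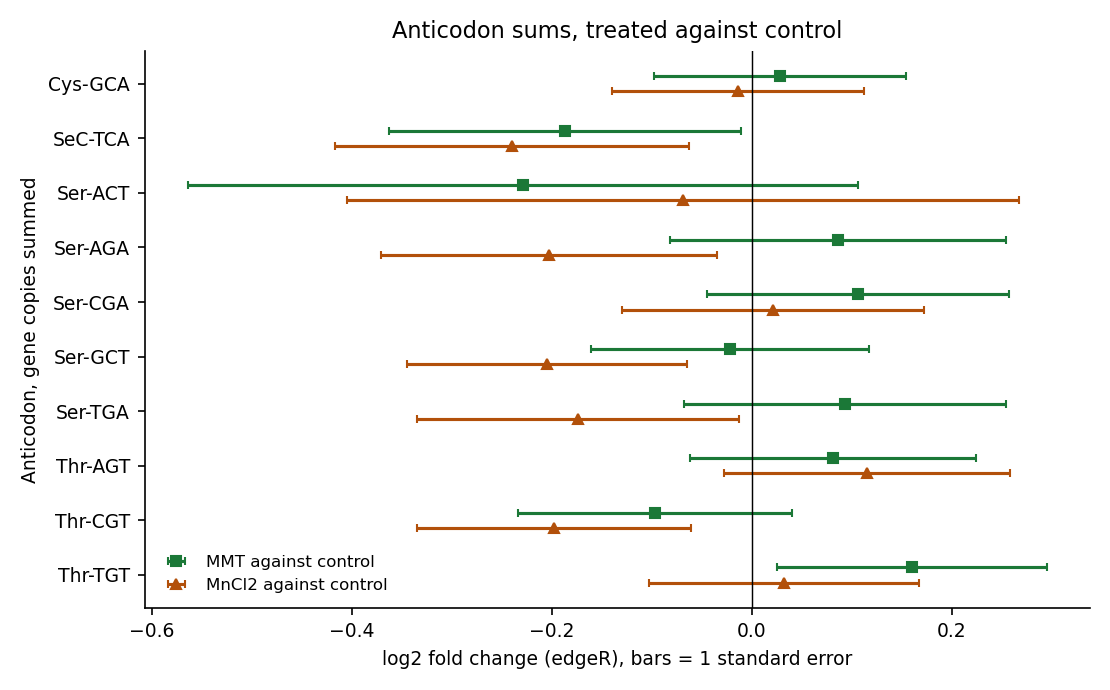
log2 fold change of each anticodon sum for MMT and for MnCl2 against control, with bars of 1 standard error, from 1 edgeR fit of all 9 libraries. Values ran from -0.24 to 0.16, and the comparisons share the control libraries.

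At the level of single gene copies, 0 of the 90 were called in each comparison at an adjusted p under 0.05 (edgeR quasi-likelihood test, Benjamini-Hochberg over 1113 entries), where the share over all entries was also 0%. DESeq2 called 0 of the 90 in each comparison too. At an unadjusted p under 0.05, 0 copies were higher and 3 were lower with MMT than control, where 0.18% and 1.98% of all entries were. With MnCl2 against control 1 copy was higher and 0 were lower, where 1.44% and 3.14% of all entries were. MMT against MnCl2 gave 0 and 0, where 1.35% and 0.629% of all entries passed. These unadjusted counts turned on single libraries: for MnCl2 against control 15 copies were lower without MnCl2 3 (3.94% of all entries in that fit) and 12 without control 3 (8.33% of all entries). For MMT against MnCl2 14 were higher without MnCl2 3 (2.8% of all entries), and for MMT against control 0 were lower without control 2 (0.616%) or without MMT 1 (0.787%). None of those copies passed after adjustment. Copies of like sequence, such as the Ser-AGA and Ser-TGA set above, may not be separate readings, so these counts are not counts of independent genes. The median log2 fold change over the 90 copies was -0.01 for MMT and -0.08 for MnCl2 against control, and over all 408 nuclear tRNA genes it was -0.01 and -0.08.

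Groups that did not overlap were counted next. With MMT against control, 1 copy lay wholly above and 6 wholly below the control libraries, where 1.8% and 2.79% of all 1113 entries did. With MnCl2 against control, 0 lay above and 6 below, where 4.76% and 4.94% did. For MMT against MnCl2 the counts were 3 above and 1 below, where 4.31% and 4.76% did. Of the 90, 6 are 6.67%. The 6 copies below control with MMT were 1 copy of Cys-GCA, the Thr-AGT copies trna3937, trna3666 and trna3718 and the Thr-CGT copies trna1888 and trna1881, the last 5 all on chromosome 17. The 6 below control with MnCl2 were the same Cys-GCA copy, the same 3 Thr-AGT copies, the leading Thr-CGT copy and Ser-GCT trna3674.

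Of the 2 Thr-AGT copies with the lowest p-values, the first, trna3666 at chr17:58935816-58935889, was at 176, 194 and 184 CPM in control, 129, 128 and 162 with MMT, and 169.9, 149 and 138 with MnCl2. Its log2 fold change was -0.40 (SE 0.15, unadjusted p = 0.0224, edgeR adjusted p = 0.9999) for MMT and -0.28 (SE 0.15, adjusted p = 0.843) for MnCl2. The other, trna3718 at chr17:57911865-57911938, was at 163, 164 and 178 CPM in control, 128, 146 and 123 with MMT, and 141, 152 and 116 with MnCl2. Its log2 fold change was -0.35 (SE 0.15, unadjusted p = 0.0403, edgeR adjusted p = 0.9999) for MMT and -0.30 (SE 0.15, adjusted p = 0.843) for MnCl2. In both copies every treated library lay below every control library. Both kept a negative sign in all 19 alternative analyses of each comparison with control and passed the threshold in none.

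The threonine copies were also set apart by chromosome. This grouping was chosen after its values were seen, so it is described and not tested. All 6 copies on chromosome 17 (3 Thr-AGT, 2 Thr-CGT and 1 Thr-TGT) had a log2 fold change below 0 in both comparisons with control, from -0.40 to -0.12 for MMT (median -0.29) and from -0.31 to -0.12 for MnCl2 (median -0.27). Among the 12 threonine copies on other chromosomes, 2 were below 0 with MMT (median 0.15) and 1 with MnCl2 (median 0.09). Summed, the 6 copies were at 1314, 1383 and 1305 CPM in control, 1095, 1127 and 1139 with MMT, and 1215, 1187 and 1022 with MnCl2. All 6 treated libraries lay below all 3 control libraries. The 12 other copies were at 7059, 7764 and 7306 CPM in control, 7652, 7813 and 8639 with MMT, and 8550.1, 7606 and 7246 with MnCl2, and those ranges overlapped. The 14 serine copies on chromosome 17, summed, were at 14769.7, 13542 and 12787 CPM in control, 15265, 14480.2 and 13855 with MMT, and 9969.8, 11602 and 14780.5 with MnCl2. With MMT 6 of these 14 copies were below 0. With MnCl2 10 of the 14 were, and MnCl2 1 and MnCl2 2 lay below every control library in the sum. Each of the 6 threonine copies has a sequence of its own, with no identical copy among the 90 genes. Thr-CGT trna1881 and Thr-TGT trna1883 have the same last 30 bases, though, and had 2088 and 1961 counts. The 6 values may therefore not be separate readings.

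The copy with the largest positive value was Ser-GCT trna3699 at chr17:58355160-58355241. Its raw counts were 35, 40 and 60 in control, 92, 75 and 79 with MMT, and 82, 116 and 86 with MnCl2. In raw counts both treated groups lay wholly above control. After scaling it was at 19.4, 39.1 and 91.2 CPM in control, 78.3, 94.1 and 56.1 with MMT, and 113, 113 and 90.2 with MnCl2, and control 3, the library with the smallest total, lay among the treated libraries. The log2 fold change for MnCl2 was 1.14 (SE 0.45, unadjusted p = 0.0268, edgeR adjusted p = 0.843), and it ran from 0.73 to 1.82 over 19 alternatives. For MMT it was 0.67 (SE 0.45, adjusted p = 0.9999). The only copy wholly above control with MMT was Thr-TGT trna915 on chromosome 15, at 545, 568 and 500.0 CPM in control and 572, 606 and 637 with MMT, with a log2 fold change of 0.17 (SE 0.12, edgeR adjusted p = 0.9999).

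The Cys-GCA copies give a direct view of how far a single copy's value can move by counting alone. A run of 30 of the 40 genes lies at chr4:142317978-142988741, and 21 of the 40 have the same sequence. These 21 had between 1253 and 1356 counts each over the 9 libraries, with a chi-square per degree of freedom of 1.05 between copies. Over all 46 members with an identical copy the value was 0.994, and over all 221 tRNA genes with one it was 1.01. The tables therefore hold no information that separates one identical copy from another. Yet the log2 fold changes of the 21 ran from -0.41 to 0.09 for MMT against control (median -0.07) and from -0.34 to 0.02 for MnCl2 (median -0.14). The SD among them was 0.114 and 0.102, against a median SE of 0.17 for a single copy. One of them, trna1771, had an unadjusted p of 0.031 and MMT libraries wholly below control (177, 160.3 and 143 CPM in control, 122, 100.4 and 141 with MMT), while the largest p among the 21 was 0.994.

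**Figure D3:**
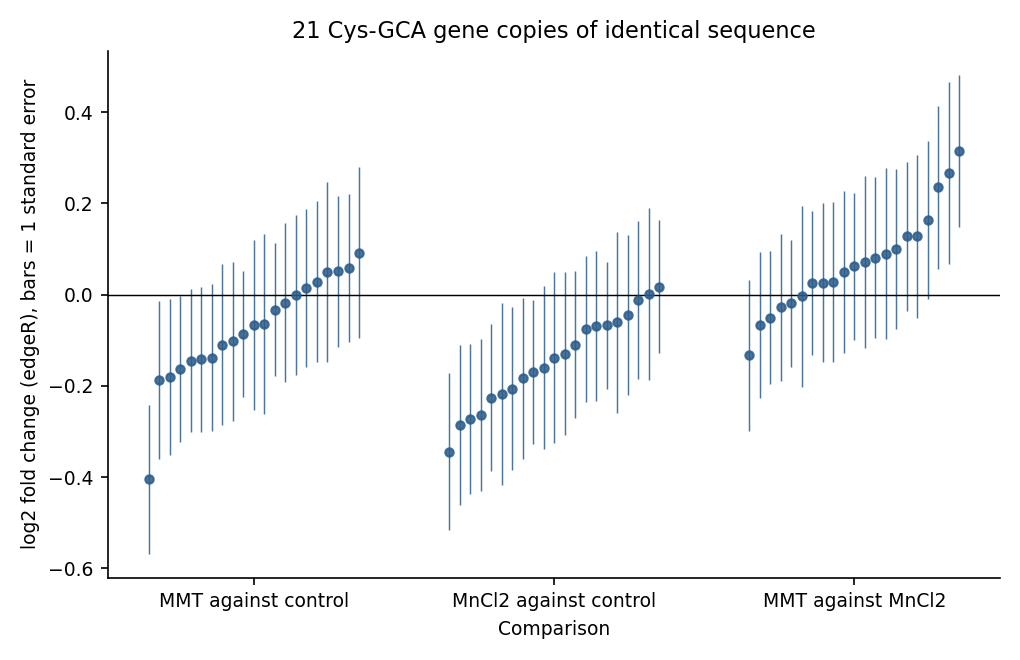
log2 fold changes of 21 Cys-GCA gene copies with the same sequence, sorted within each of 3 comparisons, with bars of 1 standard error from edgeR. Each point is a gene copy. For MMT against control the copies ran from -0.41 to 0.09 although their sequences are the same.

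The count of a copy differed with its sequence, most of all in the 5′ part of the Cys-GCA genes. Substitutions are given against the leading copy of the same anticodon, whose sequence stands near the start of the text, with its base first and positions counted from 1 at the 5′ end of the entry. Changed bases are in capitals in the Cys-GCA forms below, shown because they separate 5′ from 3′ changes.
Cys-GCA, chr10:85532719-85532790, minus strand: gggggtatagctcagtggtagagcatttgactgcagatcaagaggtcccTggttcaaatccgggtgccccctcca
Cys-GCA, chr6:33353136-33353207, minus strand: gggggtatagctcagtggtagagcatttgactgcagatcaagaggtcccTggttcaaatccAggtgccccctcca
Cys-GCA, chr14:32825148-32825219, minus strand: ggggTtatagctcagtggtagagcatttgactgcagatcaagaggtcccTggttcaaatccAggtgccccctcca
Cys-GCA, chr4:142519538-142519609, plus strand: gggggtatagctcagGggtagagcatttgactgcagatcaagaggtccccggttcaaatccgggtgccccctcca
Cys-GCA, chr4:142459454-142459525, plus strand: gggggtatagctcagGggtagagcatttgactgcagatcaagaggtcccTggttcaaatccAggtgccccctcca
Cys-GCA, chr4:142988670-142988741, minus strand: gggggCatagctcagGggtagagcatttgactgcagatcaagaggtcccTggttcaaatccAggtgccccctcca
The leading Cys-GCA form averaged 12283 counts per copy over the 9 libraries (4 copies). The copy with C50T alone had 11673 counts, 95.0% of that, and the 2 copies with C50T and G62A averaged 94.3%. The copy with T16G alone had 1985 counts, or 16.2%. The 21 copies with T16G, C50T and G62A averaged 1315 counts, or 10.7%, and the copy with T16A in place of T16G had 1372. The copy with G5T, C50T and G62A had 5096 counts, or 41.5%, and the 3 copies with T6C beside T16G averaged 260.0 counts, or 2.12%. With T at position 16, changes at positions 50 and 62 thus went with little difference in count. With T16G they went with a larger one: the copy with T16G and C50T had 1460.0 counts, against 1985 for T16G alone and 1315 with G62A as well. The form with a change at position 5 had 5096 counts, and those with changes at positions 6 or 16 had fewer. These are counts per copy, and the forms differ in their number of copies. Together, the 24 copies whose only change before the anticodon is T16G held 32484 counts. The 7 copies with no change before the anticodon held 83963 together, so the step was smaller in the summed counts. The part of copy number in the values per copy was not tested.

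The 7 Cys-GCA copies with the leading first 30 bases held 62.5% to 70.2% of all cysteine counts in each library. Their share was 65.1% ± 3.08 (SD, n = 3) in control, 67.3% ± 2.69 with MMT and 67.5% ± 2.71 with MnCl2. The 90 genes have 54 distinct sequences and 39 distinct first 30 bases. When nuclear tRNA genes were summed by their first 30 bases in place of the anticodon, a grouping chosen after the data were seen, 0 of the 39 sums were called in each comparison with edgeR.

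**Figure D4:**
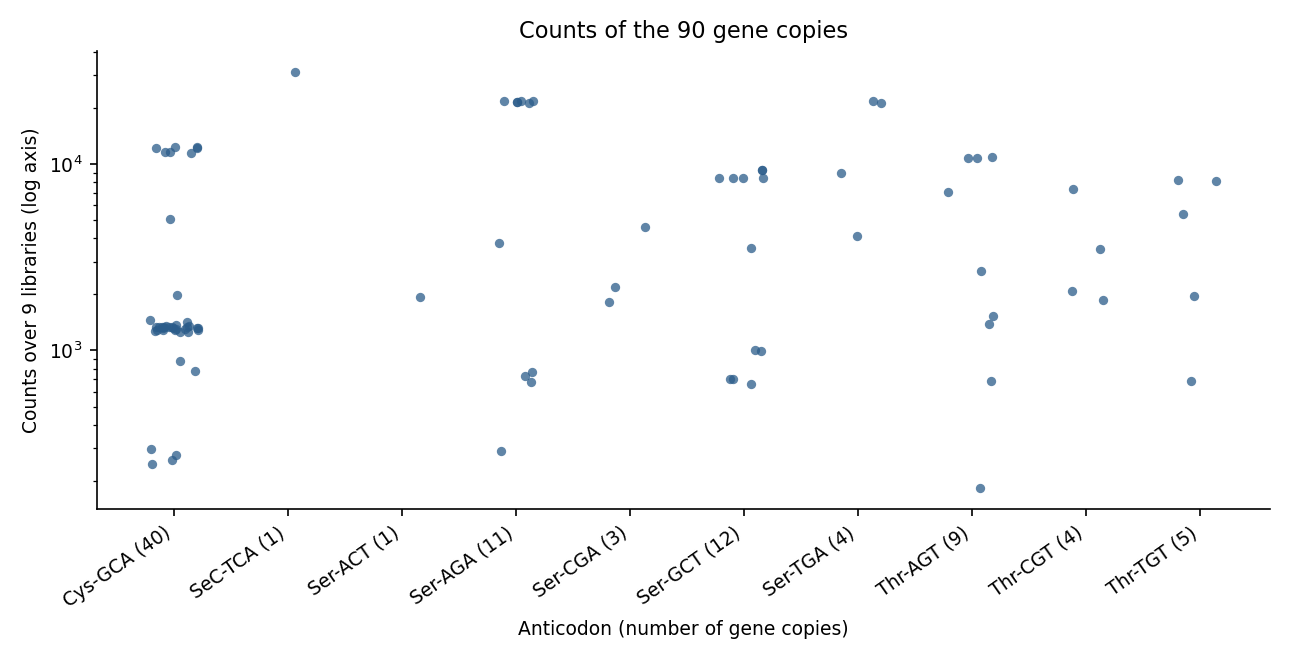
Counts of each of the 90 gene copies over the 9 libraries, on a log axis, by anticodon with the number of copies in brackets. Each point is a gene copy. The Cys-GCA copies fall into groups near 12283 and 1315 counts, and 8 of the Ser-AGA and Ser-TGA copies lie between 21359 and 21929, with the other copies of these anticodons from 289 to 8930.

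In other anticodons, copies with substitutions also had lower counts than the leading copy, but 5′ and 3′ changes were not set apart as in Cys-GCA. Some copies with a 3′ change alone had a lower count. Thr-TGT trna915, changed in its 5′ part alone (T4C and C6T), had 5393 counts, or 65.6% of the leading copy. The forms below carry their changed bases in capitals against the leading copy of the same anticodon, and include the copies named above for their group values.
Ser-GCT, chr10:55388443-55388524, minus strand: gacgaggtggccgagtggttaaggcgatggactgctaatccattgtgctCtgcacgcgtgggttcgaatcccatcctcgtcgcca
Ser-GCT, chr17:58891220-58891301, minus strand: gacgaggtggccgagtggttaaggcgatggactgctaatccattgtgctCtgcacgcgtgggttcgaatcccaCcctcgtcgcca
Ser-GCT, chr17:58355160-58355241, minus strand: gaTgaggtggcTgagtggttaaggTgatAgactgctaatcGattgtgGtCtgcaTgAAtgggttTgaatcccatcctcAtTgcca
Thr-CGT, chr14:30154934-30155005, minus strand: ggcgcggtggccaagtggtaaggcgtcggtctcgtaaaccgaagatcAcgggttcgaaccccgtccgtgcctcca
Thr-AGT, chr10:55440106-55440179, plus strand: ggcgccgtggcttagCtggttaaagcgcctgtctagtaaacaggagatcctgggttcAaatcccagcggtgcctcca
Thr-AGT, chr17:57911865-57911938, minus strand: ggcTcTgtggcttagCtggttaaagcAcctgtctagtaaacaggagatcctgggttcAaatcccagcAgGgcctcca
Thr-AGT, chr17:58935816-58935889, minus strand: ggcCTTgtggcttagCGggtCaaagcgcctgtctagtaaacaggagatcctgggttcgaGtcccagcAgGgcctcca
The 4 Ser-GCT copies with T50C averaged 8446.5 counts, 90.6% of the leading Ser-GCT copy. The copy with T50C and T74C, trna3674, had 3551 counts, or 38.1%, although its first 30 bases are the same. Thr-CGT trna5981 differs from the leading copy by G48A alone and had 3512 counts, or 47.6%. Thr-AGT trna2474 has T16C and G58A and had 7067 counts, or 65.0%. Ser-GCT trna3699, with 13 substitutions, had 665 counts, or 7.13%, and the Thr-AGT copies trna3718 and trna3666, with 7 and 9 substitutions, had 12.8% and 14.0%.

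Scarce copies also behaved unlike abundant ones between libraries of different depth. Control 1 had 3.45 times the total count of control 3. In the 21 copies with a mean of at least 1000 counts per library, the count in control 1 was 2.27 to 4.14 times that in control 3 (median 3.23). In the 53 copies between 100 and 1000 counts the median ratio was 3.21. In the 16 copies under 100 counts it was 1.17, with a range of 0.583 to 3.25, so for most of them the raw count hardly rose with depth. The other nuclear tRNA genes under 100 counts had a median ratio of 1.19. After scaling, 14 of the 16 had a lower level in control 1 than in control 3, and their group means carry that spread. The other 2 were Cys-GCA trna7756 and Ser-GCT trna7087, whose counts in control 1 were 3.25 and 3.09 times those in control 3. Ser-GCT trna3699 is among the 14, and so are the short Ser-AGA copies trna6200 and trna372. The part of depth in their group values was not tested beyond the fit with the total count as a covariate, in which 0 of the 90 copies were called.

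**Figure D5:**
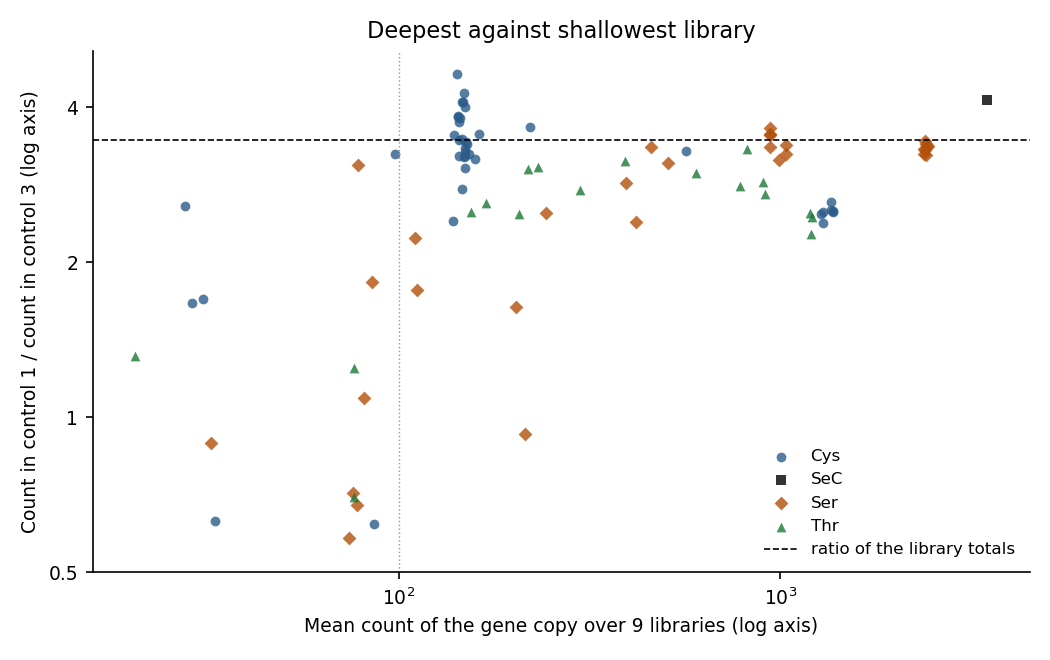
Count in control 1 divided by count in control 3 for each of the 90 gene copies, against the mean count over 9 libraries, both on log axes. The dashed line is the ratio of the library totals, 3.45, and the dotted line marks a mean of 100 counts. Copies to its right mostly lie near the dashed line, while those to its left have a median ratio of 1.17.

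MMT against MnCl2 asked whether the organic and the inorganic compound differed, at doses and vehicles that also differed. The 3 largest differences among the sums were in serine, with log2 fold changes of 0.29 for Ser-AGA, 0.27 for Ser-TGA and 0.18 for Ser-GCT, each with an edgeR adjusted p of 0.9982. The MMT and MnCl2 libraries overlapped in all 3, because MnCl2 3 lay among the MMT libraries. Of the 3 copies wholly higher with MMT, Ser-TGA trna1886 on chromosome 20 was at 989, 951 and 1049.8 CPM with MMT and 766, 845 and 916 with MnCl2, with a log2 fold change of 0.24 (SE 0.12, edgeR adjusted p = 0.981). Another was 1 of the 21 identical Cys-GCA copies, trna7755. The third was Ser-GCT trna3674, at 371, 384 and 385 CPM with MMT and 293, 364 and 365 with MnCl2. The copy wholly lower with MMT was the short Ser-AGA trna372, at 29.0, 32.6 and 19.2 CPM with MMT and 42.8, 36.1 and 48.3 with MnCl2.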

How the data were processed

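Small RNAs of 15 to 45 nucleotides from rat striatum were measured in 9 libraries, 3 in each group. TRIzol extraction, a gel cut and the QIAseq miRNA kit were used, per the labels' protocols. Per the submitters' processing notes, Trimmomatic (version not given) and rn6 were used. Not given in the sources used here are the aligner, its mismatches, whether molecular identifiers were used and how reads that fit several entries were counted. The authors deposited raw counts per entry, with no normalization. Counts may hold PCR copies, whose error exceeds that of counting.

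Groups came from the sample titles. The gene set, lists and tests were chosen with earlier results of these data known. All 1759 entries entered 1 edgeR 4.0.16 fit (R 4.3.3, TMM, filterByExpr, robust quasi-likelihood, two-sided, Benjamini-Hochberg at 0.05), which tested 1113 and left out 0.0854% of counts. Anticodon sums were fitted among 755 entries with the same library sizes and factors. The biological coefficient of variation was 0.279 for single entries and 0.351 for the fit with sums. Levels are CPM after TMM, as mean ± SD. A length is that of the listed sequence without its CCA. Shares were compared by exact permutation over 20 arrangements. The named copies were the most abundant of each anticodon, those with the 3 lowest p-values per direction and comparison, and the 5 largest fold changes per direction among copies whose groups lay apart. Alternatives were DESeq2 1.42.0, RLE, total-count or tRNA-only scaling, no filter or 10 CPM in 3 libraries, the compared groups alone, no robust weights, the total count as a covariate, a replicate block, each library left out, identical sequences summed and, added after the data were seen, sums by the first 30 bases. The test was tried on simulated data of 1113 entries in 5 simulations. Python 3.11.15, pandas 2.3.3, scipy 1.17.1 and matplotlib 3.10.9 did the rest.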

Additional observations from a re-analysis of the deposited data

How the results depend on the processing

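No anticodon sum and no gene copy was called in any comparison under any alternative that was run, edgeR and DESeq2 included. Of 190 alternative values of the 10 sums per comparison, 8 changed sign for MMT against control, 21 for MnCl2 against control and 15 for MMT against MnCl2, in sums whose log2 fold change was at most 0.23 in size. The cause was not tested. With DESeq2 the values were -0.001 (Cys-GCA, MMT against control), -0.131 (Ser-CGA), -0.042 (Thr-AGT) and -0.127 (Thr-TGT) for MnCl2 against control, and 0.101 for Thr-AGT in MMT against MnCl2. RLE gave -0.021 (Ser-CGA), -0.012 (Thr-TGT) and 0.014 (Thr-AGT), and no filter gave -0.054, -0.048 and 0.031 for the same sums and comparisons. Total-count scaling gave -0.002 for Cys-GCA with MMT. TMM from nuclear tRNA alone gave 0.051 for Cys-GCA with MnCl2 and 0.001 for Ser-GCT with MMT. The compared groups alone gave 0.033 for Thr-AGT in MMT against MnCl2. The total count as a covariate gave -0.040 for SeC-TCA and 0.103 for Ser-ACT in MMT against MnCl2. In the MnCl2 comparison the median of all summed entries moved from 0.164 to 0.00545 with DESeq2.

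Leaving out each library in turn gave these ranges: Cys-GCA -0.016 to 0.076 (MMT against control), -0.095 to 0.022 (MnCl2 against control) and -0.004 to 0.117 (MMT against MnCl2). SeC-TCA gave -0.059 to 0.177 in MMT against MnCl2. Ser-ACT gave -0.523 to 0.305, -0.367 to 0.385 and -0.300 to 0.037 in the same 3 comparisons. Ser-CGA gave -0.063 to 0.076 and Thr-TGT -0.069 to 0.051 for MnCl2 against control. Ser-GCT gave -0.064 to 0.059 for MMT against control, and Thr-AGT -0.117 to 0.062 for MMT against MnCl2. The share of nuclear tRNA counts gave -0.006 to 0.549 percentage points for MMT against control.

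Replicate numbers are shared between groups, but same-numbered libraries correlated from -0.666 to 0.493 in their deviations, over 0.1 in 4 of 9 pairs, so the numbers were not taken as a pairing. The replicate block gave 0 calls, and 0.005 for Ser-ACT with MnCl2 against control. Depth limits the 16 copies under a mean of 100 counts most.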

Other observations

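Some piRNA entries of the same tables lie wholly within the genes described above. The entry pir-64203 is the first 32 bases of SeC-TCA and had 5131 counts over the 9 libraries, beside 31360 for the SeC-TCA gene. Its counts were 1114, 519 and 304 in control, 674, 400 and 833 with MMT, and 342, 535 and 410 with MnCl2. The entries pir-64523 and pir-64524 are the first 29 and 30 bases of the leading Cys-GCA form, and each is listed under 2 piRNA classes. In control 1, pir-64523 had 222 counts under one class and 109 under the other, although the sequence is the same. Over the 9 libraries the pairs had 597 and 504 counts for pir-64523, and 649 and 779 for pir-64524. Whether a read that fits both a tRNA gene and a piRNA entry was counted in each or in only 1 of them is not given in the sources used here.

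The Thr-AGT copy on chromosome 3 (trna4020), with 183 counts the scarcest of the 90 genes, has the same first 30 bases as 13 tRNA genes of other kinds (Ala-AGC, Pro-AGG and undetermined), which had 157 to 2153 counts each. The span in the name of the Thr-AGT copy on chromosome 12 (trna5973), from 25225887 to 25226009, is longer than its listed sequence, while the spans of the 89 other genes equal the length of theirs.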
